A study of Mus musculus with 6 samples.

Results

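The genes described here encode the aminoacyl-tRNA synthetases of the cytosol and of the mitochondrion. They were chosen by name, with earlier results of these data known. The list held 37 genes, 21 for cytosolic and 16 for mitochondrial enzymes. A gene entered with its brightest probe set among those that the platform annotation gives a single symbol. Of the 37 genes, 35 could be measured, 19 cytosolic and all 16 mitochondrial, among 19938 named genes of the array. Mars was found under its present symbol, Mars1, through its Entrez ID. The remaining cytosolic genes, Aars and Dars, were not analysed here. The only probe set annotated with Aars also carries a second gene's symbol, and no probe set was named for Dars.

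Aminoacyl-tRNA synthetases join each amino acid to its transfer RNA (tRNA), the step that gives the genetic code its meaning during translation. Cytosolic enzymes charge tRNAs for nuclear-encoded proteins. A separate set, encoded in the nucleus and imported, charges the tRNAs that the mitochondrial genome encodes for translating respiratory chain subunits. Skeletal muscle depends on both, and inherited defects of either set cause neuromuscular or mitochondrial disease. Transcription of several cytosolic synthetase genes is raised by ATF4, a transcription factor of the amino acid and stress response.

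Gastrocnemius muscle was taken from male mice at 12 weeks of age, and total RNA was hybridised to Affymetrix gene arrays, with 1 array per sample. The control group comprised 3 wild type mice, and the other group comprised 3 mice labelled "homogenous SPARC knockout", which lack the secreted matrix protein SPARC. Both groups carry the strain label B6;129S-Sparctm1Hwe/J, and the labels do not say whether the animals were littermates. The allele is not restricted to muscle by any label, and arrays were taken as separate mice because the design speaks of each mouse.

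The targeted gene checked the labels. Sparc read 11.73 to 11.87 in wild type arrays and 5.83 to 6.74 in knockout arrays on the log2 scale. Median array intensity was 40.5 to 44.7 over all probe sets, without separation of the genotypes. All 10 skeletal muscle markers, among them Ckm, Acta1 and Myh4, were above the limit for dim genes (3.90, the 25th percentile of all probe sets). Knockout array 2 lay nearer to the wild type mean than the other knockout arrays did in 45.8% of 16487 genes tested.

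Promoter sequences of 28 of the 37 genes were held in the RefSeq table for GRCm38.p6, 14 of each compartment, each running from 250 bases before to 50 bases after the start. Their median GC content was 57.8% (48.3% to 71.7%), against 52.7% over all 32851 promoters. The letters TGATGNAA, a common form of the C/EBP-ATF response element that ATF4 complexes bind, were searched on both strands. They occurred in 5 of the 28 genes, all cytosolic (Aars, Gars, Iars, Tars and Yars), and in 3.97% of all promoters. The ETS core CCGGAAGT occurred in Farsa, Mars and Rars2, and in 3.89% of all promoters. GCATGCGC, the core of the motif of nuclear respiratory factor NRF1, occurred in 3 genes, all mitochondrial (Rars2, Vars2 and Wars2), and in 2.71% of all promoters. AAGATGGCG, a YY1 motif, occurred in Farsa, Aars2, Wars2 and Yars2, and in 1.40% of all promoters. In these counts and in the GC medians, synthetases entered by gene and the reference by promoter. No match overlapped a match of another motif. A match describes letters only and does not establish a binding site.

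The following 150-base stretches run 5′ to 3′ on the gene's strand, from 120 bases before the start through the first 30 transcribed bases, with motif matches in capitals. Yars, Gars, Tars and Iars are shown because they hold the C/EBP-ATF letters and were measured. Mars, Rars2, Eprs, Tarsl2 and Vars2 are shown because they had the smallest p-values of their compartments.
Yars, chr4:129189783-129189932, plus strand: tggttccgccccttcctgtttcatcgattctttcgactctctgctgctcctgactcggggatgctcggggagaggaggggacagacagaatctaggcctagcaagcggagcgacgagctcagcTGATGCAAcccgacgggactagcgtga
Gars, chr6:55037881-55038030, plus strand: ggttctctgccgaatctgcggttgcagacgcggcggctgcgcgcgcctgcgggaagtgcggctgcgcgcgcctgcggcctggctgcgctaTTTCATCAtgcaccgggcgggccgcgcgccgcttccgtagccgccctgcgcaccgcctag
Tars, chr15:11399629-11399778, minus strand: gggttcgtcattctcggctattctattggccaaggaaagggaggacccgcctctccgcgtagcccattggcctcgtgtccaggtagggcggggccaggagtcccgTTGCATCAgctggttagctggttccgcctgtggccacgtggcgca
Iars, chr13:49682010-49682159, plus strand: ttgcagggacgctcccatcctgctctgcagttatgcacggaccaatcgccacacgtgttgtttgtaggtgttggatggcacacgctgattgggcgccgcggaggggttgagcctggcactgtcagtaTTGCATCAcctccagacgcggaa
Mars, chr10:127311757-127311906, minus strand, ETS core in capitals: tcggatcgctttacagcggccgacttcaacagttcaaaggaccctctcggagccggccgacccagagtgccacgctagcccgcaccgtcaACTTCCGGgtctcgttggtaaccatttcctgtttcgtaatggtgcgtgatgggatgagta
Rars2, chr4:34614837-34614986, plus strand, NRF1 and then ETS letters in capitals: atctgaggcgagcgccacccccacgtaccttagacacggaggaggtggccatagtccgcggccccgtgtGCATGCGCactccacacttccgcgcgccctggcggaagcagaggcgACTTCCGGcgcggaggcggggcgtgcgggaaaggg
Eprs, chr1:185362924-185363073, plus strand: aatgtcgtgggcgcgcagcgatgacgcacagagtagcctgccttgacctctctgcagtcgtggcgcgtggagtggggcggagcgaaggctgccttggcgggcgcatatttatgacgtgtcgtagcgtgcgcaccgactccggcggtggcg
Tarsl2, chr7:65644778-65644927, plus strand: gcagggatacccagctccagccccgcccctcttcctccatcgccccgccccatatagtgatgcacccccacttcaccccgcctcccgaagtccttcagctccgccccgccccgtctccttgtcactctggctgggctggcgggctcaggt
Vars2, chr17:35667563-35667712, minus strand, NRF1 letters in capitals: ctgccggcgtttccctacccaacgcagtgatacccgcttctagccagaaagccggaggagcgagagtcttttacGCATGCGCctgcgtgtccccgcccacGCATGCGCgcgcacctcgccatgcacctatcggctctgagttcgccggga
Eprs and Tarsl2 hold none of the 4 motifs in the 300-base window.

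Synthetase transcripts had lower mean levels in knockout muscle almost throughout, by small amounts, and no gene passed the test. All 35 measured genes exceeded the limit for dim genes, and 33 of them had a negative change (knockout minus wild type), against 8243 of all 16487 genes tested. The median change was -0.21 on the log2 scale for the 19 cytosolic genes and -0.22 for the 16 mitochondrial genes, against a median of 0.00 for all genes. Changes ran from -0.41 (Yars) to 0.18 (Wars2). In 29 genes they lay between -0.35 and -0.10, and in 0 genes did they exceed 0.5 in either direction.

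By limma, 0 of 35 synthetase genes had an adjusted p under 0.05, with adjusted p-values of 0.109 to 0.786. Over all 16487 genes, 0.673% were called lower and 0.321% higher. Before adjustment, at a p of 0.05, 12 synthetase genes were lower, 7 cytosolic and 5 mitochondrial, and 0 were higher, where 10.3% of all genes were lower and 8.16% higher. The 3 knockout arrays all lay below the 3 wild type arrays in 16 of 35 genes (9 cytosolic, 7 mitochondrial), where 13.8% of all genes did so. They all lay above in 1 gene, Lars, where 11.1% of all genes did so. The 95% intervals of the 35 changes reached below -0.5 in 9 genes and above 0.5 in none, so that larger increases than this lay outside every interval.

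**Figure D1:**
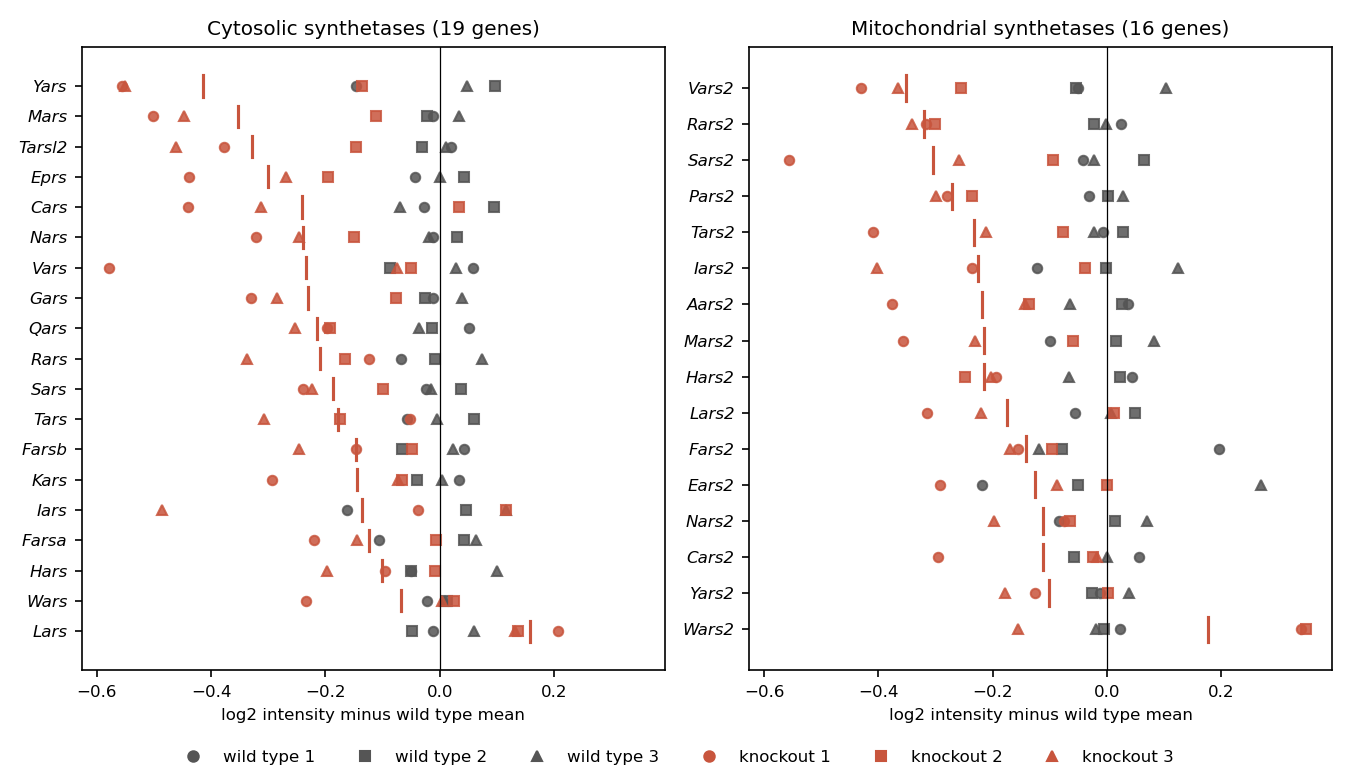
Each row is a synthetase gene and each point an array, plotted as its log2 intensity minus the wild type mean of that gene (x axis); vertical bars mark knockout means. Knockout points lie mostly left of 0, for 33 of 35 genes in the mean, and knockout array 2 (squares) is often the nearest to 0.

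The size of the change differed between knockout arrays. The median deviation from the wild type mean over the cytosolic genes was -0.24, -0.08 and -0.25 in knockout arrays 1, 2 and 3, and over the mitochondrial genes -0.29, -0.07 and -0.21. Wild type arrays lay between -0.02 and 0.02 in both groups of genes. Knockout array 2 was the nearest of the 3 to the wild type mean in 27 of 35 synthetase genes (77.1%), and in 45.8% of all genes, a difference that was not tested. It still lay below that mean in 28 of 35 genes (80.0%), where it did so in 44.6% of all genes. Knockout arrays 1 and 3 each lay below it in 33 of 35 genes, against 57.8% and 49.5% of all genes. Without knockout array 2, 3 cytosolic genes passed limma's adjusted threshold, all lower: Yars at -0.55 (adjusted p = 0.0328), Mars at -0.47 (adjusted p = 0.0290) and Tarsl2 at -0.42 (adjusted p = 0.0372). In that fit 3.60% of all genes were called lower.

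Among cytosolic enzymes, the smallest p belonged to Eprs, the bifunctional glutamyl-prolyl-tRNA synthetase that sits in the multisynthetase complex. Eprs read 9.84, 9.92 and 9.88 in wild type arrays 1 to 3 and 9.44, 9.69 and 9.61 in knockout arrays 1 to 3. The groups did not overlap, and knockout array 1 was lowest. The change was -0.30 ± 0.09 (SE; 95% interval -0.51 to -0.09; limma adjusted p = 0.146).

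Tarsl2 encodes a second cytosolic threonyl-tRNA synthetase, a paralogue of Tars. It read 8.82, 8.77 and 8.81 in wild types and 8.42, 8.65 and 8.34 in knockouts. All knockout arrays were below all wild types, with array 2 closest to them. Tarsl2 was 1.26-fold lower (-0.33 ± 0.10 SE, adjusted p = 0.149), and Tars itself changed by -0.18 ± 0.10 (SE, adjusted p = 0.381).

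Yars, the tyrosyl-tRNA synthetase, had the largest mean change of the 35 genes. It read 7.39, 7.63 and 7.58 in wild types and 6.98, 7.40 and 6.98 in knockouts. Knockout array 2 was at the level of wild type array 1, and the groups overlapped there. Yars was 1.33-fold lower (-0.41 ± 0.14 SE, adjusted p = 0.160).

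Mars, the methionyl-tRNA synthetase that also serves initiation, read 7.96, 7.95 and 8.01 in wild types. Its knockout values were 7.47, 7.86 and 7.52, all below the wild types, with array 2 the closest. Its change was -0.35 ± 0.12 (SE, adjusted p = 0.165). Ddit3, a stress-induced transcription factor gene that neighbours Mars in the RefSeq gene order, changed by -0.01 ± 0.10 (SE, adjusted p = 0.970).

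**Figure D2:**
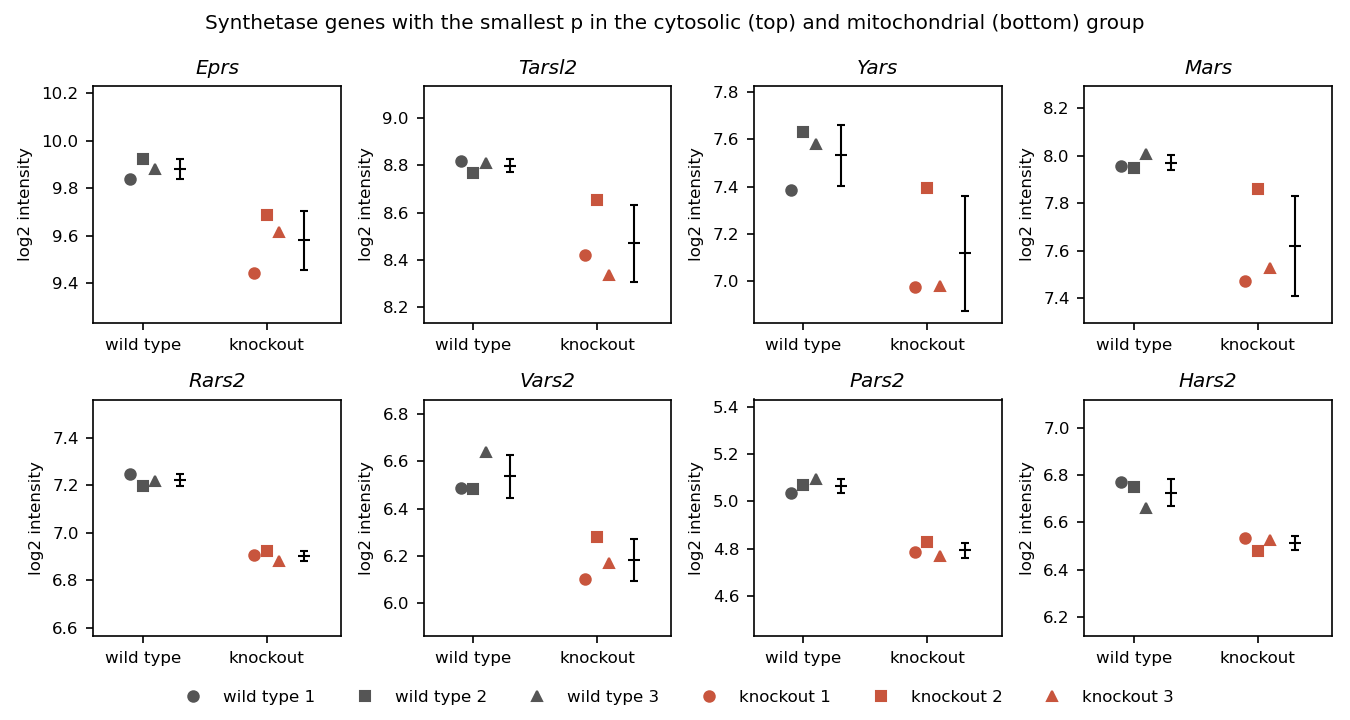
Log2 intensity of the 4 cytosolic (top) and 4 mitochondrial (bottom) genes with the smallest p, 1 point per array and the mean with SD beside each group (n = 3); every panel spans 1 log2 unit. The groups are apart in every panel but that of Yars, where knockout array 2 (7.40) reaches wild type array 1 (7.39).

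Among mitochondrial enzymes, Rars2, the arginyl-tRNA synthetase, had the smallest p of all 35 genes and tight groups. It read 7.25, 7.20 and 7.22 in wild types and 6.91, 6.92 and 6.88 in knockouts. The spread within either group was a small part of the distance between them, and knockout array 2 lay with the other knockouts. Rars2 was 1.25-fold lower (-0.32 ± 0.08 SE; 95% interval -0.51 to -0.13; limma adjusted p = 0.109).

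Vars2, the valyl-tRNA synthetase of mitochondria, read 6.49, 6.48 and 6.64 in wild types and 6.10, 6.28 and 6.17 in knockouts. The groups did not overlap. It was 1.28-fold lower (-0.35 ± 0.10 SE, adjusted p = 0.121), and its cytosolic counterpart Vars changed by -0.23 ± 0.15 (SE, adjusted p = 0.449), with knockout array 1 at 6.20 and the others at 6.73 and 6.71.

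Pars2, the prolyl enzyme of mitochondria, read 5.04, 5.07 and 5.09 in wild types and 4.79, 4.83 and 4.77 in knockouts. All knockouts were lower by about the same amount (-0.27 ± 0.09 SE, adjusted p = 0.170). Hars2, the histidyl enzyme, read 6.77, 6.75 and 6.66 in wild types and 6.53, 6.48 and 6.52 in knockouts, again apart. Its change was -0.21 ± 0.09 (SE, adjusted p = 0.242). Hars, its cytosolic counterpart and neighbour in the RefSeq gene order, changed by -0.10 ± 0.10 (SE, adjusted p = 0.644).

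Some enzymes stand out by their role. Gars and Kars, the glycyl and lysyl enzymes, each supply cytosol and mitochondrion from a single gene. Gars read 9.32, 9.31 and 9.38 in wild types and 9.01, 9.26 and 9.05 in knockouts, a change of -0.23 ± 0.10 (SE, adjusted p = 0.253). Kars read 8.60, 8.52 and 8.57 against 8.27, 8.50 and 8.49, a change of -0.14 ± 0.10 (SE, adjusted p = 0.483). In both genes all knockout arrays lay below all wild types, and in Kars knockout arrays 2 and 3 did so narrowly. Qars, the glutaminyl enzyme of the multisynthetase complex, read 8.72, 8.66 and 8.64 against 8.48, 8.48 and 8.42, with little spread among knockouts (-0.21 ± 0.08 SE, adjusted p = 0.223). Wars, the tryptophanyl enzyme, which interferon gamma induces, differed little (-0.07 ± 0.10 SE; 95% interval -0.30 to 0.16; adjusted p = 0.786), and its wild types and knockout arrays 2 and 3 lay between 7.76 and 7.81.

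Positive changes were seen in 2 genes. Lars, the leucyl enzyme that also takes part in leucine sensing upstream of mTORC1, read 7.74, 7.70 and 7.81 in wild types and 7.96, 7.89 and 7.88 in knockouts. All knockouts were above all wild types, at 0.16 ± 0.09 (SE, adjusted p = 0.375). Wars2, the mitochondrial tryptophanyl enzyme, read 6.73, 6.71 and 6.69 in wild types and 7.05, 7.06 and 6.56 in knockouts. Knockout arrays 1 and 2 were above the wild types and array 3 below, so that the mean of 0.18 ± 0.14 (SE, adjusted p = 0.560) hides opposite directions.

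The rest of the cytosolic genes had changes between -0.24 and -0.10. Nars, Rars and Sars, the asparaginyl, arginyl and seryl enzymes, had non-overlapping groups with changes of -0.24, -0.21 and -0.19. Cars, Farsa, Farsb and Hars overlapped, with changes of -0.24, -0.12, -0.15 and -0.10. Farsa and Farsb encode the alpha and beta chains of the same phenylalanyl enzyme. Iars, the isoleucyl enzyme, was at -0.14 in its brighter probe set, where knockout arrays 1, 2 and 3 read 9.69, 9.84 and 9.24 (0.04 without array 3), and at -0.25 in its other probe set.

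Of the other mitochondrial genes, Sars2, Tars2 and Aars2 had non-overlapping groups, with changes of -0.30, -0.23 and -0.22. Sars2 read 6.34, 6.45 and 6.36 in wild types and 5.82, 6.29 and 6.12 in knockouts, Tars2 7.73, 7.76 and 7.71 against 7.33, 7.66 and 7.52, and Aars2 6.18, 6.17 and 6.08 against 5.76, 6.00 and 6.00. Knockout array 1 was the lowest in each, and without it the changes were -0.18, -0.14 and -0.14. Mars2, Iars2 and Lars2 were at -0.22, -0.23 and -0.17, with overlap. Fars2, Ears2, Nars2, Cars2 and Yars2 lay between -0.14 and -0.10, also with overlap. Ears2 varied most among the wild types of these, at 5.31, 5.48 and 5.80, and its change was 0.0089 without wild type array 3.

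Cytosolic and mitochondrial enzymes of the same amino acid could be set side by side in 17 pairs, where Eprs, Fars2 and Tars2 each enter more than once. Both changes were negative in 15 pairs and opposite in 2, Lars with Lars2 and Wars with Wars2. The mitochondrial gene had the lower change in 8 pairs and the cytosolic gene in the other 9. Tyrosine gave the widest gap among pairs with equal sign, with Yars at -0.41 and Yars2 at -0.10.

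**Figure D3:**
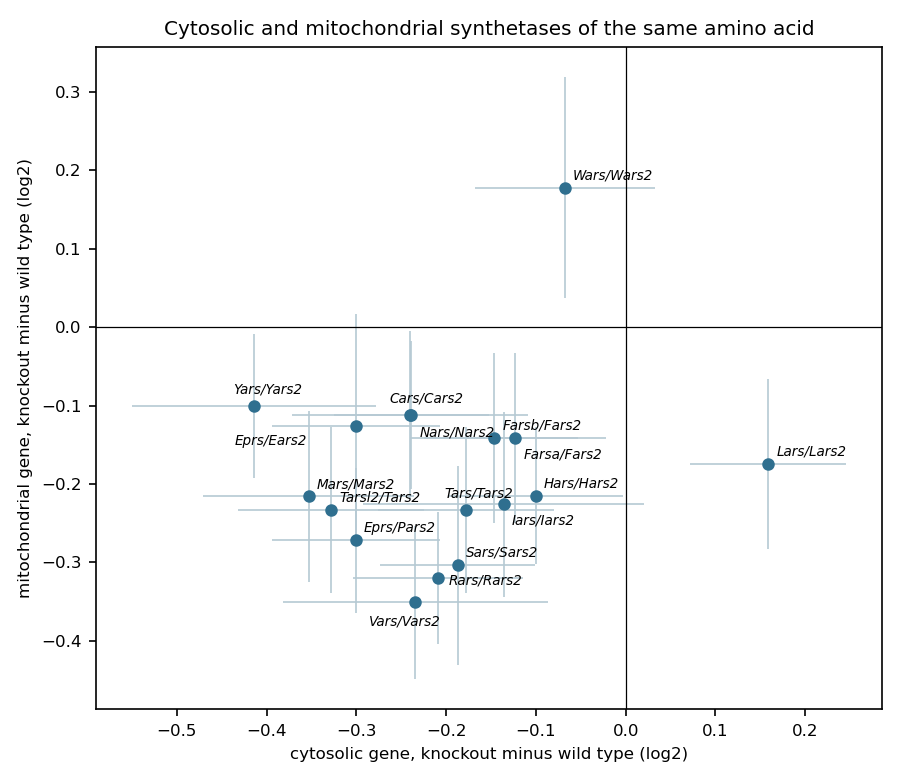
Each point is a pair of genes charging the same amino acid, with the change of the cytosolic gene on the x axis and of the mitochondrial gene on the y axis (knockout minus wild type, log2) and bars of 1 SE. Of 17 pairs 15 lie below 0 on both axes, and the pairs of Lars and Wars do not.

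Synthetases fall into 2 structural classes with unrelated catalytic folds. The 19 measured class I genes had a median change of -0.21, 17 of them negative, and the 16 class II genes a median of -0.20, all negative. The bifunctional Eprs was counted in class I only. The 7 measured enzymes of the multisynthetase complex (Eprs, Iars, Kars, Lars, Mars, Qars and Rars) had a median of -0.21, with 6 negative, and 0 genes of either class or of the complex passed. The 4 measured genes with C/EBP-ATF letters near their start had changes of -0.41 (Yars), -0.23 (Gars), -0.18 (Tars) and -0.14 (Iars), of which Yars was the largest of all 35 and the other 3 lay within the range of the genes without them (-0.35 to 0.18). The 3 genes with NRF1 letters were at -0.35 (Vars2), -0.32 (Rars2) and 0.18 (Wars2).

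Partners of the synthetases were taken from lists of related genes. Of the 3 scaffold proteins of the multisynthetase complex, 0 passed by limma and 1 was lower at an unadjusted p of 0.05, with a median of -0.22. Over all genes tested, 10.3% were lower at that p. Aimp2 was at -0.44 ± 0.12 (SE, adjusted p = 0.117), Eef1e1 at -0.22 and Aimp1 at -0.03. Mitochondria lack a glutaminyl-tRNA synthetase, and an amidotransferase of 3 subunits makes their glutaminyl-tRNA. Of its genes Gatb fell. It read 7.29, 7.20 and 7.41 in wild types and 6.59, 6.68 and 6.40 in knockouts, clearly apart, a 1.68-fold lower level (-0.75 ± 0.11 SE, adjusted p = 0.0231). Gatc and Qrsl1, the other subunits, were at -0.04 and -0.03. Leaving out wild type array 1, 2 or 3 lost the call of Gatb, at limma adjusted p-values of 0.134, 0.0971 and 0.154. Its change stayed at -0.75, -0.80 and -0.69. Those fits called 32, 30 and 27 of all 16487 genes, against 164 with all arrays.

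Of 7 genes around cytosolic elongation, 1 fell, 0 rose and 6 had a negative change, with a median of -0.17. The gene that fell was Eef1akmt1, a lysine methyltransferase of elongation factor eEF1A. It read 8.03, 7.79 and 7.86 in wild types and 6.97, 7.05 and 6.77 in knockouts, a 1.95-fold lower level (-0.96 ± 0.11 SE, adjusted p = 0.00831). Its limma adjusted p-values were 0.0646 and 0.0673 without wild type arrays 1 and 3. Those fits called 32 and 27 of all genes, against 164 with all arrays. Eef1a1 itself was at 0.33 ± 0.11 (SE, adjusted p = 0.155), with all knockout arrays above all wild types. Eef1a2, the other eEF1A gene of the list, was at -0.26 ± 0.13 (SE, limma adjusted p = 0.346), with overlap. Of 11 mitochondrial translation factors 0 passed by limma, 8 were negative and 3 were lower at an unadjusted p of 0.05, with a median of -0.23. The release factor genes Mtrf1 and Mtrf1l were at -0.40 and -0.32. Of 15 genes of mitochondrial tRNA processing 0 passed by limma, 13 were negative and 4 were lower at an unadjusted p of 0.05, with a median of -0.12. Over all genes tested, 0.673% were called lower and 0.321% higher by limma, and 10.3% were lower at an unadjusted p of 0.05. Osgepl1, a tRNA modifying enzyme, and Elac2, which cuts the 3′ end of precursor tRNAs, were at -0.32 and -0.35.

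Genes of the amino acid and ATF4 response did not share a sign. Of 29 tested, 17 were negative and 12 positive, with a median of -0.06, 0 past limma's adjusted threshold, and an unadjusted p under 0.05 in 6 negative and 2 positive genes. At that p, 10.3% of all genes were lower and 8.16% higher, which are the shares for the following lists too. Gpt2, alanine aminotransferase, had the smallest p, reading 9.57, 9.70 and 9.69 in wild types and 8.59, 9.23 and 8.83 in knockouts (-0.77 ± 0.15 SE, adjusted p = 0.0602). Cth, cystathionine gamma-lyase, was at -0.44 ± 0.09 (SE, adjusted p = 0.0697). Atf4 was at -0.19 ± 0.10 (SE, adjusted p = 0.348), and the amino acid transporter Slc38a2 was at 0.44. Of the 6 genes for eIF2 kinases and activators of GCN2, the sensor of uncharged tRNA, 0 passed by limma and 1 was higher at an unadjusted p of 0.05. The 6 changes were Eif2ak2 at 0.46, Eif2ak3 at 0.21 and GCN2 itself (Eif2ak4) at 0.02, with Eif2ak1 at -0.16, Impact at -0.07 and Gcn1 at 0.03. Leucine sensing genes had a median of -0.06 over 16, with 0 passing and 3 lower at an unadjusted p of 0.05, Nprl2 and Nprl3 at -0.32 and -0.31 among them. Interferon gamma response genes, relevant to Wars, had a median of -0.07 over 13, with 0 passing and 1, Cxcl9 at -0.53, lower at an unadjusted p of 0.05. That was 7.69% of the list, against 10.3% of all genes. The next smallest p in that list was of Cd274, at -0.24.

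**Figure D4:**
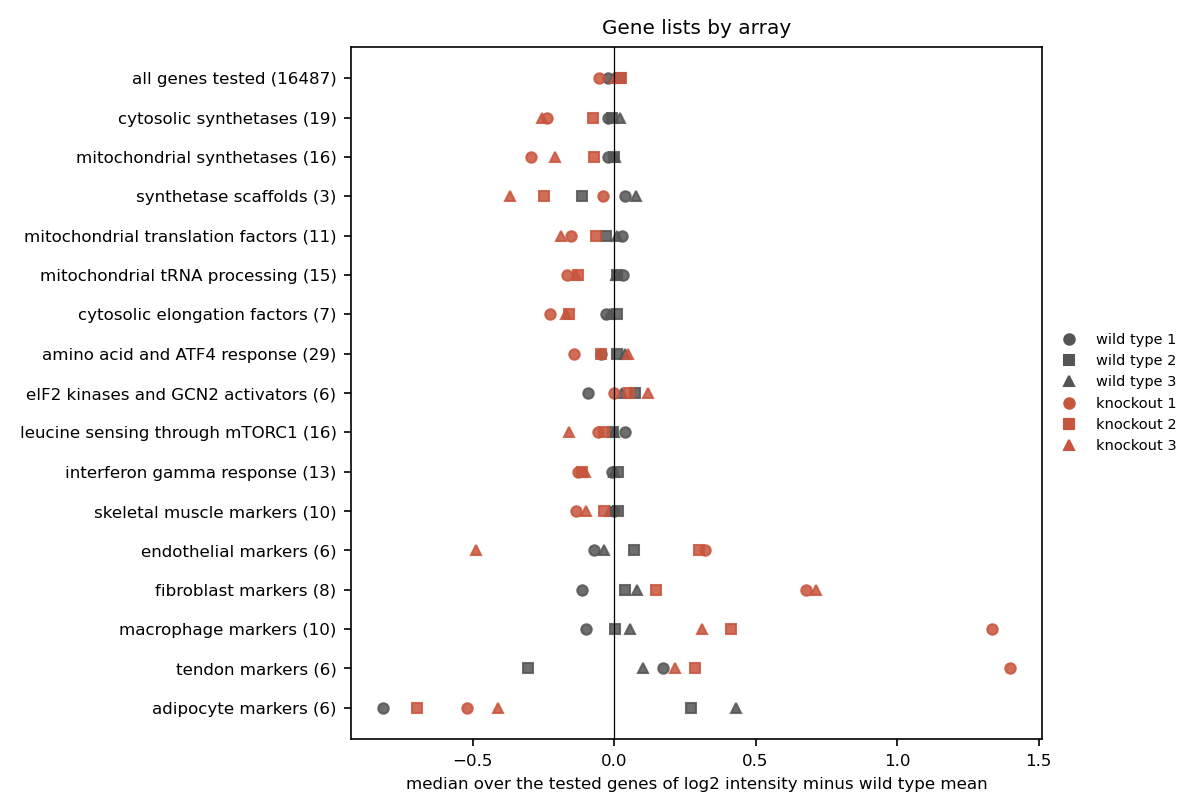
Each row is a gene list with its number of tested genes, and each point an array, plotted as the median over the list of log2 intensity minus the wild type mean. Both synthetase lists lie below 0 in all knockout arrays (-0.29 to -0.07), and fibroblast and macrophage markers lie above it, with knockout array 2 at 0.15 for fibroblast markers and 0.68 and 0.71 in the others.

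The arrays also differed in markers of other cells of the muscle. All 10 macrophage markers and all 8 fibroblast markers had positive changes, with medians of 0.68 and 0.67. By limma 0 of them passed, and 8 and 5 had an unadjusted p under 0.05. Of all 16487 genes, 8244 had a positive change, 8.16% were higher at that p and 0.321% were called higher. The summed intensity of the macrophage list was 2245 to 2533 in wild types and 3191 to 5827 in knockouts, and that of the fibroblast list 11762 to 12870 against 13189 to 17791. The list medians in knockout arrays 1, 2 and 3 were 1.34, 0.41 and 0.31 for macrophages and 0.68, 0.15 and 0.71 for fibroblasts. All 6 tendon markers were positive, with a median of 0.53 and summed intensities of 2323 to 3210 against 2616 to 6295. All 6 measured adipocyte markers were negative, with a median of -0.52 and sums of 2198 to 3928 against 2231 to 2740. Endothelial markers had a median of -0.01 over 6, with sums of 2965 to 3299 against 2249 to 3911. Of 6 measured T and B cell markers 3 were dim (Cd3g, Cd79a and Ms4a1), and the 6 had sums of 116 to 127 against 141 to 162. The 3 tested were Cd4 at 0.83, Cd3e at 0.24 and Cd8a at -0.04. Skeletal muscle markers had a median of -0.09 over 10, 7 of them negative, and sums of 72081 to 73276 against 65484 to 71380. Their list medians in knockout arrays 1, 2 and 3 were -0.13, -0.03 and -0.10. The smallest shift was in array 2, as in both synthetase lists and in the fibroblast list. Over all genes tested, array 2 was the knockout array nearest to the wild type mean in 45.8%. The positive muscle markers were Myh1 at 0.43, Myh2 at 0.24 and Mb at 0.17. In 6 of these 10 markers the highest knockout value was under the lowest wild type value, and in 1 the reverse held. Of all genes, 13.8% and 11.1% did so. The part of these cells in the synthetase values was not tested. In RNA of whole muscle, fewer cells of a type and less RNA per cell cannot be told apart.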

How the data were processed

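Gastrocnemius RNA of 3 wild type and 3 Sparc knockout mice was measured, with 1 array each and 0 columns left unmapped. The deposited intensity values are on a linear scale (1.59 to 13566 over 35556 probe sets) and were made by the authors; per the submitters' processing notes, they used Affymetrix Expression Console 1.3.0.187 and the RMA method. It corrects background, normalizes arrays jointly and can understate changes of dim genes. For the array's genome build, none is given in the sources used here. Intensities have no read depth, and the number of arrays limits precision.

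Log2 was taken without offset, where the design had assumed log2 values. Symbols came from the platform annotation, which can be old: 21789 probe sets had 1 symbol, 1621 several (not used) and 12146 none. The probe set with the highest mean stood for a gene, and 3451 of 19938 genes under the 25th percentile (3.90) were left out. All 35 measured synthetase genes matched the RefSeq table of GRCm38.p6 by Entrez ID, which served for names and neighbours only. RefSeq promoters were searched in Python.

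The test was limma 3.58.1 under R 4.3.3 (knockout against wild type, two-sided, mean-variance trend, Benjamini-Hochberg over 16487 genes, threshold 0.05), checked on simulated data. SE is the fit's moderated error. With 3 against 3 arrays an exact permutation test cannot go below 0.10 and was not used. The genes and lists were chosen with earlier results of these data known. The genes described array by array are the 4 with the smallest p of each compartment and those of special role. Of each related list, members past the threshold or else the 2 with the smallest p are named. Motifs, and the genes named beyond that (Aimp1, Gatc, Qrsl1, Eef1a1, Eef1a2, Ddit3 and the ATF4 and eIF2 kinase genes), and the array values of Lars, Vars, Wars2, Ears2, Iars, Sars2, Tars2 and Aars2, were chosen after values were seen. Alternatives covered normalization, dim filter, probe set choice, offset, variance model, array weights, a replicate block and leaving out each array.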

Additional observations from a re-analysis of the deposited data

How the results depend on the processing

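The change was negative in 17 or 18 of 19 cytosolic and 14 or 15 of 16 mitochondrial genes (15 in all with the stricter dim filter) under every alternative, a count added after seeing the data. The median change was -0.23 to -0.18 (cytosolic) and -0.26 to -0.14 (mitochondrial) with 1 array left out. Under the other settings it was -0.25 to -0.15 and -0.26 to -0.17. With 1 array left out 0 to 3 cytosolic and 0 mitochondrial genes were called, the 3 without knockout array 2. At the unadjusted p the counts were 7 and 5. Wars ranged from -0.11 without knockout array 2 to 0.015 without knockout array 1, where its sign reversed. Iars (0.04 without knockout array 3) and Ears2 (0.0089 without wild type array 3) also turned positive. Leaving out 1 array moved the change of 20 of 35 genes by over 1.5 times, and of 12 when it was knockout array 1, Vars among them (-0.06). The cause was not tested.

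Deviations of same-numbered arrays correlated at 0.01, 0.08 and -0.02 over all genes tested, and those of differently numbered arrays at -0.06 to 0.05. Whether replicate numbers pair the arrays cannot be told from 3 arrays per group. With the replicate block 0 cytosolic and 0 mitochondrial genes were called, 123 genes passed over all genes in place of 164, and Gatb had an adjusted p of 0.0543. Of 271 single-gene comparisons with an alternative, 261 kept direction and side of the threshold.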
